A study of Homo sapiens with 9 samples.

Results

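The 3325 regions described here are H3K27me3 islands that were present in wild-type (WT) BEAS-2B cells and had no counterpart in mdig knockout (KO) cells. They were selected on the islands themselves: an H3K27me3 island of the WT library was taken when it shared no base with any H3K27me3 island of the KO library, on chromosomes 1 to 22 and X. This left 3325 of 23390 WT islands, 14.2% of them, and 20065 WT islands that shared at least 1 base with a KO island. These 2 sets are called absent and retained islands. BEAS-2B cells derive from normal human bronchial epithelium and were made immortal with a viral construct. KO cells were edited with CRISPR-Cas9 and a guide against mdig, a JmjC domain protein encoded by RIOX2, and express no mdig protein. WT cells went through the same editing and the same selection with blasticidin and kept mdig. WT and KO cells came from separate colonies, collected after selection and screened for mdig by Western blot. Differences between colonies therefore cannot be told apart from those of the genotype. Chromatin immunoprecipitation followed by sequencing (ChIP-seq) was made for H3K27me3, H3K9me3, H3K4me3 and the arginine mark H3R8me2a, with 1 library of each mark in KO and 1 in WT, and an island is a stretch of the genome enriched in 1 library. There are no replicates, so every difference below compares 2 libraries, has no error and was not tested. An island has a start and an end and no height, and the depth behind it is unknown. A mark lost from all cells and a mark lost from a share of them cannot be told apart.

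H3K27me3 is written by Polycomb repressive complex PRC2, whose catalytic subunit is EZH2 or EZH1, and is removed by the demethylases KDM6A and KDM6B. It marks genes kept silent in a given cell type, above all developmental regulators, and lies both in compact domains over CpG-rich promoters and in broad domains between genes. H3K4me3 marks active or poised promoters, and a promoter that carries H3K4me3 and H3K27me3 together is called bivalent. H3K9me3 is the mark of constitutive heterochromatin and of silenced repeats.

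Sequences of 300 bases from 3 absent islands are given as examples, each of them wholly under the island. The first pair lies directly upstream of the start of genes where H3K4me3 was found within 2 kb of the start in the KO library and not in the WT library. These are given in the direction of transcription on GRCh37, with each CG in capitals. SRMS, a non-receptor tyrosine kinase, is read from the minus strand of chr20:62179103-62179402. SYCP1, a protein of the synaptonemal complex of meiosis, is read from the plus strand of chr1:115397184-115397483. The last is the centre of an absent island of 22.6 kb inside MECOM, a zinc finger transcription factor of blood stem cells, from the plus strand of chr3:168866151-168866450, outside annotated exons.
SRMS: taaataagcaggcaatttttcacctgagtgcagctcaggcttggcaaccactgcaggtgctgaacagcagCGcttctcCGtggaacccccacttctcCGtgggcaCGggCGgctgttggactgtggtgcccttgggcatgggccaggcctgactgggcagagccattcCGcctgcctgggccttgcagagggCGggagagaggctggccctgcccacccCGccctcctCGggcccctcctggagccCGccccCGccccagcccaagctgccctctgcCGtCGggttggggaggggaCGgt
SYCP1: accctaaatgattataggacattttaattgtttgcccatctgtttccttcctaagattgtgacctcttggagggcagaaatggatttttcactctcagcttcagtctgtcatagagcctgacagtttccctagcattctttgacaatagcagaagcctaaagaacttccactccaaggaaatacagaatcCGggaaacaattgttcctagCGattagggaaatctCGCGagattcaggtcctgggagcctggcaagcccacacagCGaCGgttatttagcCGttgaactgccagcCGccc
MECOM: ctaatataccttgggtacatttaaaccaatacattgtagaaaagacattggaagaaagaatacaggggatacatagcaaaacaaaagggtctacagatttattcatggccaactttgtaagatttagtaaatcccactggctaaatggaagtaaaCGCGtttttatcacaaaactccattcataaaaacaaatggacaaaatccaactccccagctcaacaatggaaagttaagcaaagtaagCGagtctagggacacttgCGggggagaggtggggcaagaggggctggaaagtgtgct
The SRMS window held 14 CG, the SYCP1 window 8 CG and the MECOM window 4 CG. GC content was 68% in the SRMS window, 46.3% in the SYCP1 window and 40% in the MECOM window.

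The absent islands were short. Their length had a median of 3.8 kb and ran between 0.2 and 60 kb, with quartiles at 2.6 and 5.6 kb, while the retained islands had a median of 7 kb and reached 377.2 kb. Together the absent islands covered 15.3 Mb, 5.97% of the 256.1 Mb under WT islands, against 240.8 Mb under retained islands. The absent share was 36.6% of WT islands of up to 1 kb, 30.8% between 1 and 2 kb, 25.9% between 2 and 4 kb, 14.6% between 4 and 8 kb, 5.96% between 8 and 16 kb and 1.18% above 16 kb, where 45 of 3827 islands were absent. The share thus became smaller in every longer class. The rule itself favours this trend, since a longer island has more bases that can meet a KO island. How much of the trend comes from the rule was not tested. Since the KO library had more H3K27me3 in all, 341.6 Mb in 22628 islands, the absent islands stand within a wider gain, and 6913 KO islands overlapped no WT island.

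**Figure D1:**
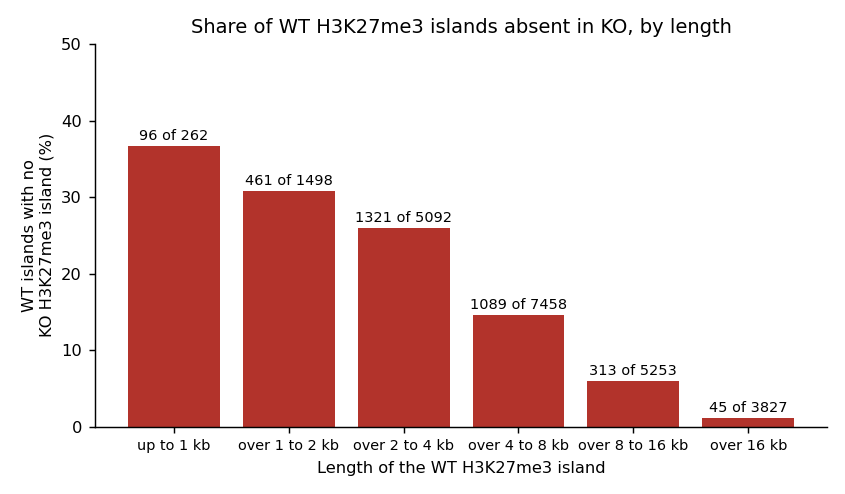
Share of WT H3K27me3 islands that overlapped no KO H3K27me3 island (vertical axis, percent) in 6 classes of island length (horizontal axis), with the number of absent islands of all WT islands above each bar. The share is 36.6% in the shortest class and 1.18% in the longest.

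Most absent islands lay at some distance from the KO signal. The nearest KO H3K27me3 island lay at a median of 17.2 kb, with quartiles at 4.8 and 68.2 kb. It was within 1 kb for 219 absent islands and more than 100 kb away for 663, 19.9% of them. Just inside the rule were 17 absent islands of 1.2 to 10.8 kb that touched a KO island with no shared base. Just outside it were 25 retained islands of 0.8 to 8.8 kb that shared only 200 bases, 1 step of the grid on which the islands lie. The retained islands were for the most part fully present, since 67.1% of them were wholly under KO islands and 429 of 20065 were under 50% covered. A KO island without a WT counterpart lay within 10 kb of 170 absent islands (5.11%) and of 2491 retained islands (12.4%). The rule chose both sets by KO H3K27me3 islands, and the retained islands are longer. The difference is therefore not read as a trait of the absent islands.

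Absent islands were unevenly spread over the chromosomes. On chromosome 18, 255 of 784 WT islands were absent (32.5%), followed by chromosome 4 with 22.3%, chromosome 10 with 21.3%, chromosome 22 with 19.3% and chromosome 15 with 19%. The lowest shares were 6.39% on chromosome 20, 7.66% on X and 7.77% on chromosome 11. A high share did not mean less H3K27me3 in sum. In bases, the ratio of KO over WT H3K27me3 was 1.09 on chromosome 18 and 1.36 on chromosome 4. Of the 11 chromosomes above the overall share, 8 were also above the overall share of WT islands missing in KO for H3K9me3, 8 for H3K4me3 and 9 for H3R8me2a. On chromosome 18, 25.9% of WT H3K9me3 islands, 17.8% of WT H3K4me3 islands and 76.1% of WT H3R8me2a islands had no KO island of their own mark, against 12.5%, 6.69% and 28.2% over all chromosomes. Chromosome 4 went the other way, with 10.6%, 5.23% and 20%, as did chromosome 17. Over the 23 chromosomes, the rank correlation of the absent share of H3K27me3 with that of the other mark was 0.54 for H3K9me3, 0.64 for H3K4me3 and 0.71 for H3R8me2a. These points come from the same 2 cell populations, and the correlations are given as a description. DNA copy number was not measured in these data, and its part in the shares was not tested.

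**Figure D2:**
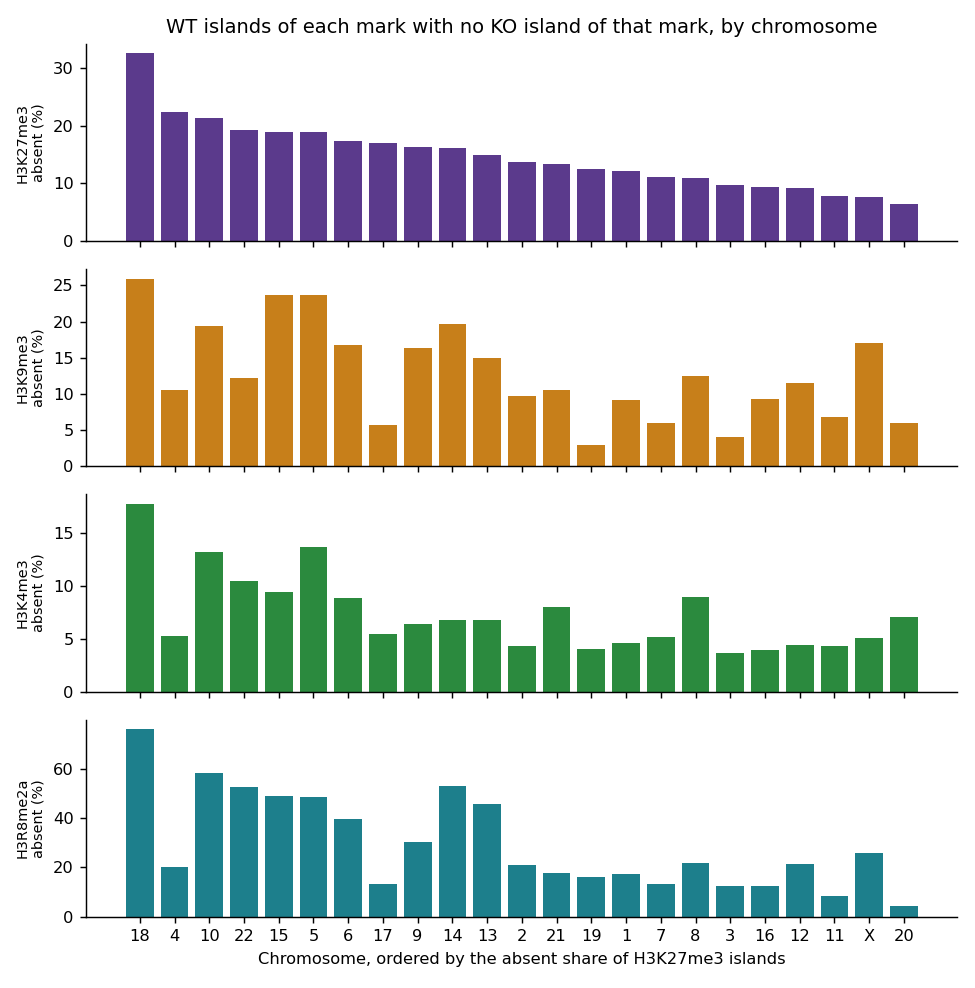
Share of WT islands with no KO island of the same mark (vertical axes, percent) for H3K27me3, H3K9me3, H3K4me3 and H3R8me2a on each chromosome (horizontal axis), ordered by the H3K27me3 share. Chromosome 18 has the highest share for all 4 marks, with 32.5% for H3K27me3 and 76.1% for H3R8me2a.

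Windows within chromosomes also differed widely. Of 411 windows of 5 Mb with at least 15 WT H3K27me3 islands, 18 had at least 50% of them absent and 16 had none absent, at a median of 12.4%. The window with the highest share was 160 to 165 Mb of chromosome 4, where 14 of 15 islands were absent, followed by 35 to 40 Mb of chromosome 18 with 18 of 22 and 105 to 110 Mb of chromosome 6 with 20 of 25. The 18 windows held 349 absent islands, 10.5% of all. In them 79 of 117 WT H3R8me2a islands (67.5%), 65 of 329 H3K9me3 islands (19.8%) and 47 of 391 H3K4me3 islands (12%) also had no KO island, against 25.9%, 10.7% and 6.51% in the other windows. The single windows differed in this. In the leading window of chromosome 4, 1 of 16 H3K9me3 and 1 of 16 H3K4me3 islands were missing and WT had no H3R8me2a island. In the window of chromosome 6, 15 of 16 WT H3R8me2a islands were missing, but only 3 of 42 H3K4me3 islands.

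Neighbouring islands were often absent together. Taken along each chromosome, the absent islands formed 1934 runs without a retained island in between, of which 1289 were single islands and 85 held 5 or more, and these longer runs held 648 islands (19.5%). The longest run had 29 islands, 122 kb of H3K27me3 within 728.2 kb of chromosome 18 (chr18:23081201-23809400), with 5 islands in PSMA8, a testis proteasome subunit, and 1 at the start of TAF4B, a germ cell form of a TFIID subunit. SS18, a subunit of BAF chromatin remodelling complexes, lies within the span and had no WT H3K27me3 island. In that span the KO library held 10.2 kb of H3K27me3, all of it outside the WT islands, and neither library held H3K9me3. H3K4me3 covered 7 kb in KO and 7 kb in WT. The second run, of 25 islands, covered 94.2 kb within 4254 kb (chr18:49920401-54174400), between DCC, a netrin receptor, and TCF4, a basic helix-loop-helix factor of the nervous system. In this span the KO library held 8.8 kb of H3K27me3. Here H3K4me3 covered 30 kb in KO and 41.8 kb in WT, H3K9me3 9.4 kb in KO and 9.6 kb in WT, and H3R8me2a 0 kb in KO and 5 kb in WT. The third run had 18 islands within 3893 kb of chromosome 6 (chr6:119269201-123162200), including the starts of MAN1A1, a Golgi mannosidase, and FABP7, a brain fatty acid binding protein. The KO library had no H3K27me3 island in that span, where H3K9me3 covered 100 kb in KO and 44.4 kb in WT and H3R8me2a 0 kb in KO and 7.4 kb in WT. Of the WT H3K4me3 islands in these spans, 2 of 2, 10 of 14 and 10 of 11 overlapped a KO H3K4me3 island in the order given, and of their H3R8me2a islands 0 of 2 in the second span and 0 of 3 in the third did. At DCC, the H3K4me3 of the gene and 5 kb upstream was 0 kb in KO and 2.6 kb in WT, and at TCF4 7 kb in KO and 14 kb in WT. DCC kept H3K27me3 within 2 kb of its start, 2.77 kb in KO and 3.17 kb in WT, and 1 of its 2 WT islands was absent.

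By position in the gene annotation, 323 absent islands (9.71%) came within 2 kb of a protein-coding start, 547 (16.5%) covered another exon, 735 (22.1%) lay in introns, 643 (19.3%) in genes of other types and 1077 (32.4%) between genes. Retained islands re-weighted to the length classes of the absent ones (a standardisation used below wherever "at the same lengths" is written) gave 10.8% at promoters, 12.9% in exons, 21.2% in introns, 21.3% in other genes and 33.8% between genes. The widest gap between the 2 sets was thus in exons. A wider one was found for the state of the surrounding gene. Of 1282 absent islands inside a protein-coding gene and away from starts, 580 (45.2%) lay in a gene with H3K4me3 at its start in both libraries, against 30.2% of retained islands at the same lengths. In the class between 4 and 8 kb, 206 of 910 WT islands in such genes were absent (22.6%), against 186 of 1517 (12.3%) in genes with H3K4me3 at the start in neither library, and above 16 kb the counts were 17 of 367 and 3 of 695. Up to 1 kb there was no such gap, with 12 of 35 (34.3%) against 16 of 46 (34.8%). In every longer class the share was higher in genes with H3K4me3 in both libraries. Only the start of the canonical transcript of each gene was used. Islands at other starts of a gene were thus counted in exons or introns and as away from starts.

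Most absent islands carried no other mark in KO. In the KO library, 2601 of them (78.2%) overlapped no island of H3K9me3, H3K4me3 or H3R8me2a, against 79.5% of retained islands at the same lengths. H3K9me3 was found on 384 absent islands (11.5%) in KO and on 67 (2.02%) in WT, against 14.3% and 3.03% of retained islands at the same lengths. H3K4me3 was found on 316 absent islands (9.5%) in KO and on 293 (8.81%) in WT. Retained islands at the same lengths gave 6.11% and 6.49%. H3R8me2a was found on 176 (5.29%) in KO and on 73 (2.2%) in WT, against 2.47% and 1.04% at the same lengths. H3K9me3 was thus more common in KO on both sets, and a little less so on the absent one. Both other marks were more common on absent islands than on retained islands at the same lengths, in either library. Without that weighting, H3K4me3 was on 9.23% of retained islands in KO and 9.74% in WT, and H3R8me2a on 4.89% and 1.91%.

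**Figure D3:**
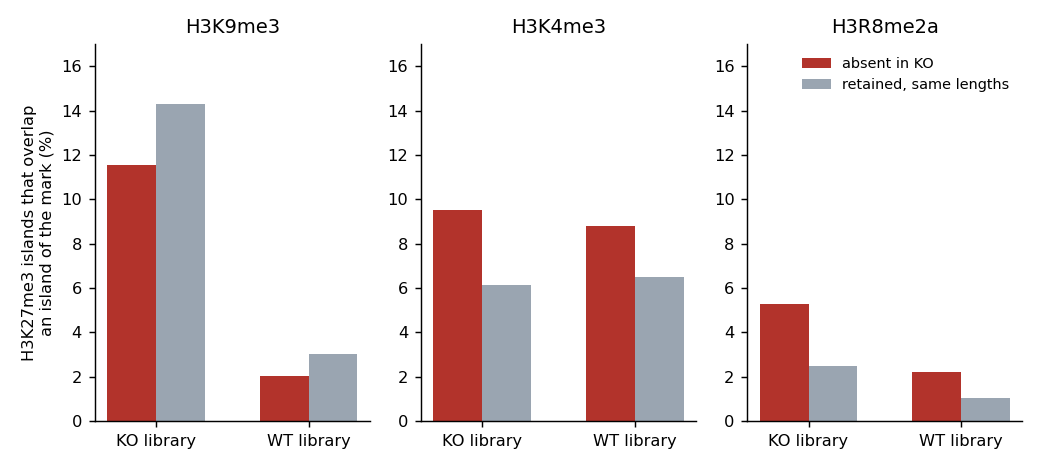
Share of H3K27me3 islands that overlapped an island of H3K9me3, H3K4me3 or H3R8me2a (vertical axis, percent) in the KO library and in the WT library, for absent islands (red) and for retained islands at the same lengths (grey). H3K9me3 was on 11.5% of absent islands in KO and on 2.02% in WT, against 14.3% and 3.03% of retained islands.

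In bases, the absent islands held 1485.2 kb of H3K9me3 in KO and 205 kb in WT, a ratio of 7.24, against 8.36 on retained islands and 3.7 over the whole genome. For H3R8me2a they held 867.6 kb in KO and 321.8 kb in WT, a ratio of 2.7, against 3.65 on retained islands and 1.61 over the genome. For H3K4me3 they held 887.8 kb in KO and 693 kb in WT, a ratio of 1.28, against 1.1 on retained islands and 1.15 over the genome. Of the 336 absent islands with H3K4me3 in either library, 206 (61.3%) had more bases of it in KO and 77 (22.9%) had fewer, while among the 2161 such retained islands 54.2% had more and 37% fewer. Where H3K9me3 was present in KO, it covered a median of 73% of an absent island and 48.1% of a retained one. The retained islands are longer, and no comparison at the same lengths was made for the ratios, the H3K4me3 shares or this coverage.

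The 10 longest absent islands ran between 22.6 and 60 kb and were varied in what else they held. The longest, of 60 kb (chr17:55770801-55830800), spanned CCDC182 and lay 72.2 kb from the nearest KO H3K27me3 island. H3K9me3 covered 38.8 kb of it in KO and 0 kb in WT. The second, of 33 kb (chr1:2080001-2113000), covered exons of PRKCZ, an atypical protein kinase C of cell polarity, with 32 kb of H3K9me3 in KO and 5.6 kb in WT. Islands of 27 and 23.4 kb lay in CACNB4, an auxiliary subunit of voltage-gated calcium channels, and 1 of 26.2 kb in CECR2, a chromatin remodelling factor, and none of these 3 held another mark in either library. An island of 26.6 kb in CACNA1S, the calcium channel of skeletal muscle, held 13.2 kb of H3R8me2a in KO and 0 kb in WT. An island of 26.2 kb spanned BSX, a homeobox gene of the hypothalamus and pineal gland. H3K4me3 covered 6 kb of it in KO and 2 kb in WT. The MECOM island held 5.8 kb of H3K4me3 in KO and 4.2 kb in WT. Islands of 28.4 kb, 46 kb from XXYLT1, and of 25.8 kb, 10.5 kb from MRPS23, lay outside protein-coding genes, and the first held 15.2 kb of H3K9me3 in KO and 0 kb in WT.

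At promoters, taken as 2 kb on both sides of the start, 4128 of 20098 protein-coding genes had a WT H3K27me3 island and 342 of these (8.28%) had an absent one. In 323 of the 342 no other KO H3K27me3 island was left there. The WT islands at these starts were short, with a median of 4.8 kb for the longest island at a start, against 13.7 kb at starts with retained islands only. No comparison at the same lengths was made for starts with any mark, so island length may enter the differences between starts. H3K4me3 was in both libraries at 196 of the 342 (57.3%), against 1365 of 3786 starts (36.1%) with retained islands only and 65.8% of all protein-coding starts. It was present in KO and not in WT at 13 of the 342 starts (3.8%), against 66 (1.74%) with retained islands only and 1.07% of all protein-coding starts. It was present in WT and not in KO at 4 (1.17%), against 203 (5.36%) with retained islands only and 1.5% of all. Among starts with H3K4me3 in both libraries, it was at least 0.4 kb wider in KO at 78 of the 196 (39.8%) and at least 0.4 kb narrower at 25 (12.8%). The corresponding shares were 34.5% and 14% at starts with retained islands only and 21.8% and 9.52% of all 13219 such starts.

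**Figure D4:**
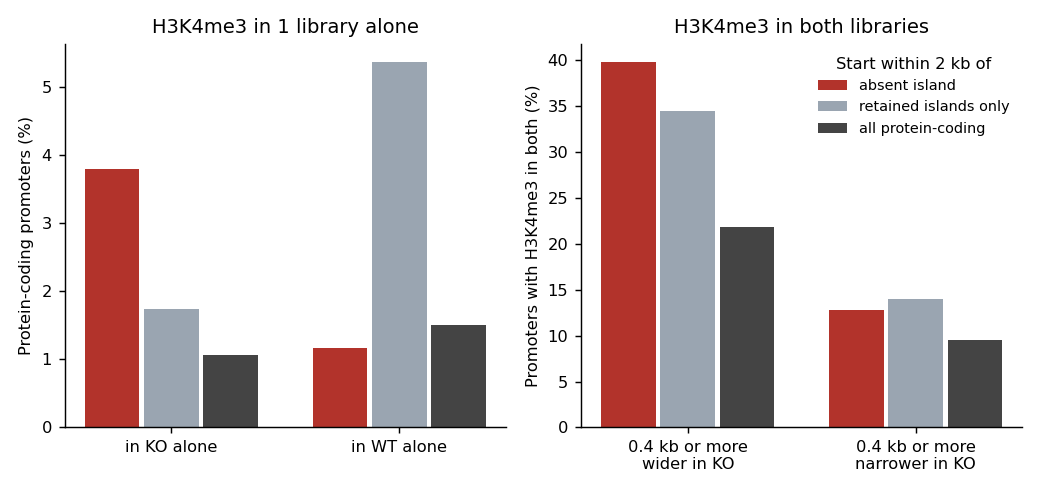
H3K4me3 within 2 kb of protein-coding starts that had an absent H3K27me3 island (red), retained islands only (grey) or of all starts (black), as percent of starts (vertical axes). Starts were not matched for island length. The left panel gives starts with H3K4me3 in KO alone (3.8% with an absent island) or WT alone (1.17%), and the right panel gives, for starts with H3K4me3 in both, those at least 0.4 kb wider (39.8%) or narrower in KO (12.8%).

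The genes whose start had H3K4me3 in KO alone were SRMS, CDHR2, TRPV3, COL11A2, CLPSL1, PLAAT5, FAM240C, TMEM45B, RDM1, MIXL1, SYCP1, BMP8A and FCHO1. Over the gene and 5 kb upstream, however, WT held 4.96 kb of H3K4me3 at SRMS and 8.69 kb at CDHR2. There it also held 1.42 kb at COL11A2, 2.405 kb at CLPSL1 and 2.2 kb at FCHO1, and 0 kb at the others. SRMS, shown above, had 3.9 kb of H3K4me3 within 2 kb of its start in KO and 0 kb in WT, and 4 kb of H3R8me2a in KO and 0 kb in WT, over a promoter that WT H3K27me3 covered fully. CDHR2, a cadherin of the intestinal brush border, had 3.86 kb of H3K4me3 in KO and 0 kb in WT. TRPV3, a heat-gated cation channel of keratinocytes, had 2.8 kb in KO and 0 kb in WT. Over all 13 genes, the KO H3K4me3 within 2 kb of the start lay at least in part on the absent island at 11, and at 8 the absent island covered the start itself. At SRMS all of it lay on the absent island, at CDHR2 1.2 kb of it did, and at TRPV3 and BMP8A none of it did. COL11A2, a collagen of cartilage, had 2.64 kb of H3K4me3 in KO and 0 kb in WT. SYCP1 had 1.6 kb in KO and 0 kb in WT, and all 5 of its WT H3K27me3 islands, 22.1 kb in sum, were absent. MIXL1, a homeobox gene of mesendoderm, had a single WT H3K27me3 island of 2.4 kb that reached across its start from 1.36 kb upstream to 1.04 kb downstream. In KO, H3K4me3 took up 1.8 kb of the same interval. BMP8A, a ligand of the bone morphogenetic protein family, had 1.4 kb of H3K4me3 in KO and 0 kb in WT. At CDHR2, TRPV3, COL11A2, CLPSL1 and PLAAT5 other H3K27me3 was left in KO over the gene and 5 kb upstream, between 6.8 kb in COL11A2 and 37 kb in TRPV3.

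The reverse change, H3K27me3 and H3K4me3 both missing in KO, was found at 4 starts, those of PRR30, SLC34A2, SLC5A2 and FOXJ1. FOXJ1, the master regulator of motile cilia in airway cells, had 0 kb of H3K4me3 within 2 kb of its start in KO and 2.88 kb in WT, and WT H3K27me3 covered the whole window there, as did H3R8me2a in both libraries. SLC34A2, a phosphate transporter of alveolar type II cells, had 0 kb of H3K4me3 in KO and 1.4 kb in WT. SLC5A2, the glucose transporter SGLT2 of the kidney, had 0 kb in KO and 0.444 kb in WT, and PRR30 0 kb in KO and 1.12 kb in WT. The absent island reached only 0.244 kb into the window at SLC5A2 and 0.078 kb at PRR30.

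H3K9me3 was present in KO and not in WT at 30 of the 342 starts (8.77%), against 723 (19.1%) with retained islands only and 8.44% of all starts, so that the share was close to that of all starts. The starts with retained islands only had longer islands, and these shares were not compared at the same lengths. The widest H3K9me3 in KO was tied among 7 genes, GAL3ST2, a galactose sulfotransferase, MUC4, a membrane mucin, NPY4R and NPY4R2, receptors of pancreatic polypeptide, TP53AIP1, a mitochondrial protein induced by p53, GRK1, the rhodopsin kinase, and PLD4. In each of them H3K9me3 covered the whole window of 4 kb in KO and 0 kb in WT. NPY4R and NPY4R2 are copies with the same position in the lifted annotation and stand for 1 uncertain locus, although both entries are in the counts given here. H3R8me2a was present in KO and not in WT at 52 of the 342 (15.2%), against 427 (11.3%) with retained islands only and 13.4% of all.

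Over gene bodies with 5 kb upstream, 5560 protein-coding genes had a WT H3K27me3 island and 1115 of them (20.1%) had an absent one. In 476 of the 1115 (42.7%) no KO H3K27me3 was left over the gene, and over all 5560 genes this was so in 9.39%. These 476 genes were mostly small losses, with a median of 4.2 kb and 403 genes with a single absent island. H3K4me3 was at the start in both libraries in 271 of them (56.9%), against 42.8% of the 5560. Of the 476, 253 also had their start within 2 kb of an absent island, so this value overlaps with those at promoters above. These shares were not compared at the same lengths. In the other 639 genes, KO H3K27me3 was found next to the absent islands, and 249 of them (39%) had more H3K27me3 in KO than in WT.

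Most bases under absent islands were in CACNB4, with 12 of its 14 WT islands and 108.4 kb absent, so that H3K27me3 covered 15.2 kb in KO and 146.4 kb in WT. Its promoter kept the mark, and H3K4me3 there was 3.76 kb wide in KO and 2.4 kb in WT. CECR2 followed with 75.6 kb in 7 of 8 islands, its promoter included, leaving 10 kb in KO against 96.4 kb in WT. PRKCZ had 10.2 kb of H3K27me3 in KO and 125.2 kb in WT, while H3K9me3 over it was 112.6 kb in KO and 36.8 kb in WT. Complete loss was seen in CCDC88C, a regulator of WNT and G protein signalling, with all 10 islands and 69.4 kb absent. ACTN2, the alpha-actinin of muscle Z-discs, lost all 8 islands and 54.7 kb, and CLYBL, a mitochondrial lyase, had 0 kb of H3K27me3 in KO and 74.7 kb in WT. CCDC88C and CLYBL had H3K4me3 at the start in both libraries, 2.8 kb in KO and 3 kb in WT for CCDC88C and 4 kb in KO and 3.74 kb in WT for CLYBL. ACTN2 had none at its start, where H3K9me3 was 2.8 kb in KO and 0 kb in WT. Absent islands did not always mean less H3K27me3 over the gene. AUTS2, a gene of neuronal development, had 17 of 42 islands and 74.8 kb absent but 274.8 kb of H3K27me3 in KO and 288.5 kb in WT, and LRMDA, a gene of melanocyte differentiation, had 9 of 30 islands absent but 178.4 kb in KO and 175 kb in WT. The remaining genes among the first 10 were CDH10, a neuronal cadherin, with 57.2 kb absent and RANBP17, an importin-like transport receptor, with 51.6 kb.

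**Figure D5:**
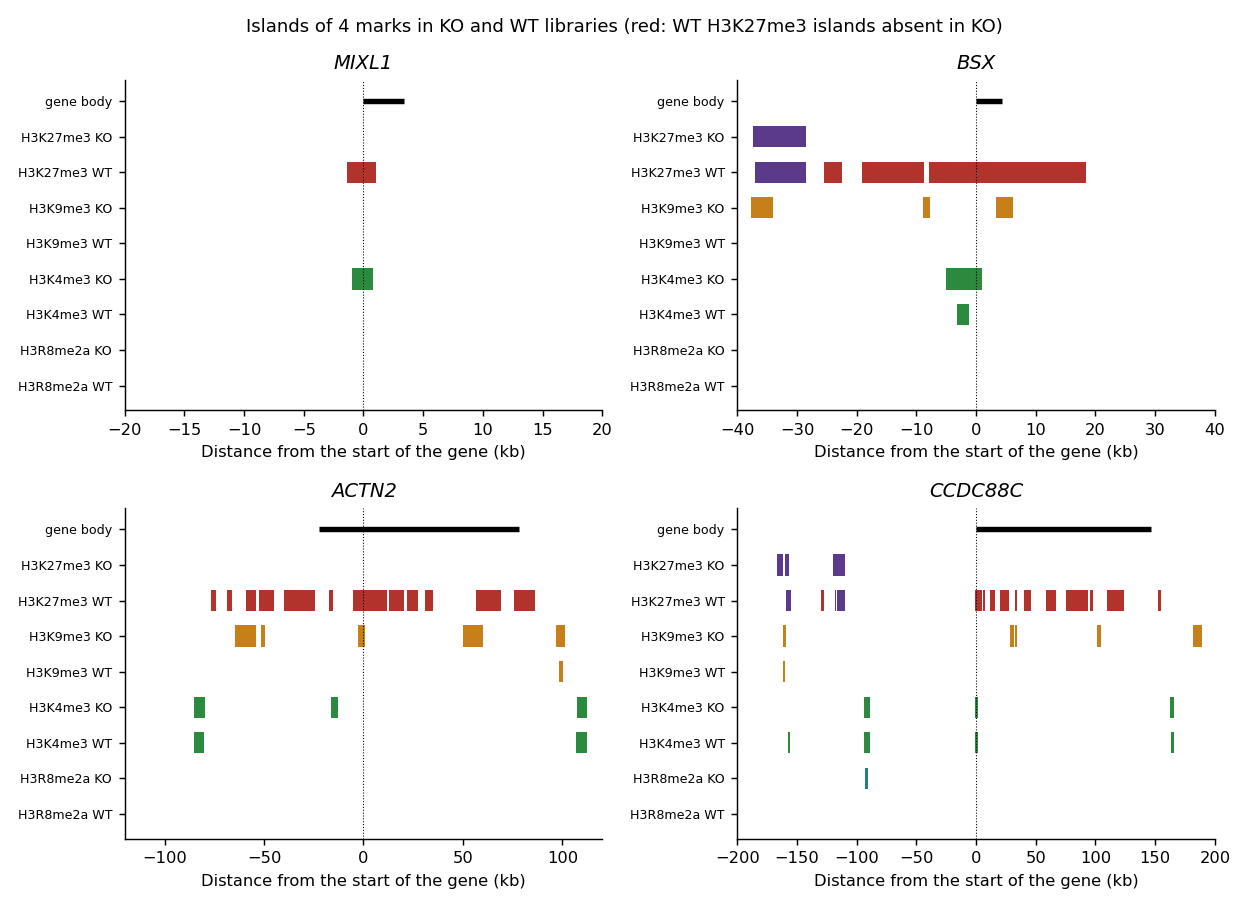
Islands of H3K27me3, H3K9me3, H3K4me3 and H3R8me2a in KO and WT libraries (rows, KO above WT) around MIXL1, BSX, ACTN2 and CCDC88C, as distance from the start in the direction of transcription (horizontal axes, kb). Red bars are WT H3K27me3 islands absent in KO, among them all 10 in CCDC88C and all 8 in ACTN2, and the H3K4me3 island of MIXL1 is in the KO row alone.

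Lists of developmental regulators, the usual targets of Polycomb, differed at promoters. None of 36 HOX promoters with a WT island had an absent one, and the WT islands there had a median of 154.2 kb. Over the gene and upstream region, HOXA13 alone among 37 HOX genes had an absent island. On the list of other homeobox genes, which was set by symbol and leaves out some such as BSX, the count at promoters was 2 of 114 (1.75%), MIXL1 and ALX1, a factor of craniofacial development, both with islands below the median of 29.7 kb of the list. It was 2 of 34 for SOX and forkhead genes (FOXJ1 and FOXP3, the factor of regulatory T cells), 2 of 12 (16.7%) for GATA and T-box genes, 1 of 25 in the WNT pathway (WNT16) and 0 of 7 among the stemness genes that the paper names. For comparison, 8.28% of all starts with a WT island had an absent one. The list of potassium, sodium and calcium channels had 1 of 92 promoters (KCNAB2, a potassium channel subunit) but 24 of 101 gene regions (23.8%), CACNB4 and CACNA1S among them, against 20.1% of all gene regions. Other channels, such as TRPV3, are not on that list. The 29 promoters of glutamate and GABA receptors with a WT island had none absent, and 4 of their 37 gene regions did. The PRC2 subunits and H3K27 demethylases had no H3K27me3 in WT at all.

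Several other lists had higher shares at promoters. Keratins had 6 of 24 promoters (25%), with KRT9 of palm and sole skin, KRT14 and KRT17 of basal epithelial cells, and KRT24, KRT26 and KRT27, all of them in the type I keratin cluster of chromosome 17. KRT9 and KRT26 were covered over the whole window in WT and had no H3K27me3 there in KO, whereas at KRT17 the absent island reached 0.227 kb into the window. None of the 6 had H3K4me3 within 2 kb of its start in either library. KRT14 and KRT17 have near-identical copies on the same chromosome, and reads shared with these are uncertain. Solute carriers had 15 of 100 (15%), among them SLC9A2, a sodium-proton exchanger, where H3K4me3 was 4 kb wide in KO and 2.2 kb in WT. The TGF-beta and BMP list had 3 of 14, BMP8A, BMP8B and BMPR1B, a BMP receptor. At BMPR1B H3K4me3 was 3.5 kb in KO and 2.71 kb in WT. Interleukins and receptors had 3 of 16, IL10, IL12RB1 and IL2RB, and no H3K4me3 was found at these starts in either library. The absent island reached only 0.639 kb into the window at IL10, 0.057 kb at IL12RB1 and 0.245 kb at IL2RB. The pair of GATA and T-box genes was GATA6, a factor of lung and gut endoderm, and TBX1, a factor of the pharyngeal arches, both with H3K4me3 over the whole window in KO and in WT. Collagens had 2 of 19, COL11A2 and COL9A3, a collagen of cartilage in which H3K4me3 was 4 kb wide in KO and 1.8 kb in WT. Olfactory receptors had 8 of 82 (9.76%), none of them with H3K4me3 in either library. Zinc finger genes had 2 of 42, ZNF804A and ZNF7, metalloproteases 2 of 20, ADAMTS17 and MMP24, and claudins, cadherins and protocadherins, taken by symbols CLDN, CDH and PCDH and so without CDHR2, 2 of 29, CDH16 and CLDN17. Laminins and integrins had 1 of 7, ITGAM, a leukocyte integrin, and chemokines and receptors 1 of 21, CXCL17. PRC1 subunits had 0 of 5, serpins 0 of 5 and imprinted genes 0 of 3. The lists are small, and nothing is read from a single count.

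Markers of the cell type, read from H3K4me3 at promoters, included epithelial and mesenchymal genes in both libraries. H3K4me3 was at 7 of 12 epithelial markers in KO and 7 in WT, among them CDH1 and EPCAM, and at 7 of 9 mesenchymal markers in KO and 7 in WT, among them VIM and FN1. It was at 1 of 6 leukocyte markers, CD14, in either library, with PTPRC and CD3E without it, and at 1 of 5 markers of differentiated airway cells in KO and 2 in WT. Of these markers KRT14, KRT17 and FOXJ1 had an absent island at the start. RIOX2 itself had no H3K27me3 island in either library and 2.93 kb of H3K4me3 at its start in KO, against 2.73 kb in WT. An island at the start of a gene does not read an edit further into the gene, so these data do not check the knockout.

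The base composition of absent islands was close to that of retained islands. GC content had a median of 43.9% with quartiles at 40.1 and 48.9%, against 45.4% with quartiles at 42.4 and 49%. The mean number of CG per kb was 13.8, against 14.2 in retained islands at the same lengths, and the mean ratio of observed over expected CpG was 0.255, against 0.26. The motif TGANTCA, the site of AP-1, whose reverse complement is the same motif, was found 0.291 times per kb, against 0.302 at the same lengths. Among the absent islands themselves the differences were larger. Those with H3K4me3 in KO had a median of 24.6 CG per kb and 50.4% GC, and those with H3K9me3 in KO 17 CG per kb and 50.8% GC. The 2601 with none of the 3 other marks in KO had 9.67 CG per kb and 42.4% GC. In the 300 bases upstream of the 342 starts the median count was 17 CG, against 19 at starts with retained islands only and 20 at all starts. It was 25 CG where H3K4me3 was present in both libraries, 14 where it was present in KO alone and 5 where it was present in neither. TGANTCA was found in 18 of these 342 windows (5.26%), against 5.28% at starts with retained islands only and 5.77% of all windows.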

How the data were processed

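ChIP-seq libraries of H3K27me3, H3K9me3, H3K4me3 and H3R8me2a in KO and WT cells were analysed, with 1 library per condition, and the input library of WT cells was not used here. The submitters' processing notes name hg19, SICER 1.1 and BWA (version not given). The authors extended the aligned reads and sampled the tags of compared libraries down to the lowest number among them. The deposited values are starts and ends of islands in bases on a grid of 200 bp, with no height or read number, so depth and precision per island are unknown and no normalization could be changed. Whether the islands were called on these sampled tags is not stated. A difference in depth or in signal over background between 2 libraries could change which short islands are called.

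Overlap needed 1 shared base and was counted again with bedtools 2.31.1, which gave the same 3325 absent islands. Starts are those of the canonical transcripts of GENCODE 44 lifted to GRCh37, and a promoter is 2 kb on both sides. A gene region is the body and 5 kb upstream. Sequences were read from GRCh37, and no island reached past the end of a chromosome. At the same lengths means that retained islands were weighted to the 6 length classes of the absent ones. The code was tested on simulated islands. Python 3.11.15, numpy 2.4.6, pandas 2.3.3 and matplotlib 3.10.9 were used.

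Named are the 10 genes with most absent bases, genes of the 10 longest absent islands and of the 3 longest runs, up to 12 genes with H3K4me3 and 6 with H3K9me3 at the start in KO alone, listed genes with an absent island at the start, and RIOX2. FCHO1, PLD4 (tied with the 6), the 4 genes with H3K4me3 in WT alone, HOXA13 and genes of the marker check were named after their values were seen. The members, lists and comparisons were chosen with earlier results of these data known. Alternatives were other overlap rules, length limits, joining of islands, promoter windows, the gene body alone and chromosomes left out. Merged regions of all libraries were not used.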

Additional observations from a re-analysis of the deposited data

How the results depend on the processing

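None of the 6 counts run again under other settings had to be withdrawn. Some settings, such as autosomes alone, change few islands and could move the counts little. The comparisons of absent with retained islands were not run again. The 6 counts (absent islands, promoters with an absent island, absent islands with KO H3K9me3, H3K4me3 or H3R8me2a, and genes with an absent island and no KO H3K27me3) stayed within 1.5 times the main value under all of the settings run. The absent islands numbered 3106 when a KO island within 1 kb counted as present, 3754 when KO islands had to cover 50% of the WT island, 2895 with WT islands of at least 2 kb, 2905 with islands within 1 kb joined, 3341 without KO islands under 1 kb and 3263 on autosomes. Leaving out chromosome 18, a choice made after seeing the data, gave 3070 absent islands, 13.6% of those tested. The promoters numbered 291 with a window of 1 kb and 462 with 5 kb, and the genes without KO H3K27me3 numbered 396 for the gene body alone. No paired analysis was possible because each mark had 1 library in KO and 1 in WT and no test was run. With no read numbers in the islands, a stretch just under the caller's threshold in KO cannot be told from one without H3K27me3, and this bears most on short islands.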
